A study of Homo sapiens with 36 samples.

Results

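The extracellular matrix and integrin genes described here are 42 genes chosen by a list of symbols: 16 collagen chains, 7 laminin chains, 9 matricellular and other matrix proteins, and 10 integrin subunits. All 42 symbols were found among the 58243 gene rows of the count table. The matricellular and other matrix proteins were FN1, SPARC, THBS1, TGFBI, LOX, LOXL2, TNC, HSPG2 and AGRN.

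RNA was sequenced from PANC-1, MIA PaCa-2 and BxPC-3, 3 established cell lines of human pancreatic ductal adenocarcinoma. Each line received DMSO (the solvent control), GW3965 (a synthetic agonist of the liver X receptors), 1E5 or 3A4 (both labelled as inverse agonists of these receptors and known here by code name only), with the ligands at 10 µM for 48 h. Each of the 12 groups held 3 libraries numbered as biological replicates, 36 in all. BxPC-3 grew in RPMI 1640 and the other lines in high-glucose DMEM, each with 10% fetal bovine serum, so for BxPC-3 line and medium cannot be told apart. The genotype label is NA in all samples, and each model is 1 cell line. Liver X receptors are nuclear receptors that bind oxysterols and switch on genes of cholesterol export; an inverse agonist lowers the activity a receptor shows without an added ligand.

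As background, collagens, laminins, glycoproteins and proteoglycans form the matrix around cells, and integrins are the paired alpha and beta receptors that bind it. Fibrillar collagens (types I, III and V) build tensile fibres, whereas type IV, VII, XVII and XVIII collagens, laminins, perlecan and agrin belong to the basement membrane under epithelia. In pancreatic cancer most fibrillar matrix is laid down by stellate cells and fibroblasts, while the tumour cells themselves also express matrix genes.

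Total counts per library ranged from 2701393 to 26026684. They were lowest in MIA PaCa-2, where DMSO libraries held 3609582 to 10996848 counts and 1E5 libraries 23675670 to 25503827, so low members were measured less finely in its control than under 1E5. The response to GW3965 was checked with ABCA1, a cholesterol exporter and liver X receptor target. Its mean rose in PANC-1 from 7.35 ± 1.58 to 190 ± 43.7 CPM (counts scaled to 1000000 per library), in BxPC-3 from 44.9 ± 11.6 to 337 ± 15.9 CPM, and in MIA PaCa-2 from 13.5 ± 3.95 to 102 ± 27.8 CPM (SD, n = 3 each). With 1E5 and 3A4 the means were 9.23 ± 2.48 and 8.49 ± 2.11 CPM in PANC-1 and 38 ± 13.5 and 36.3 ± 9.45 CPM in BxPC-3. In MIA PaCa-2 they were 14.4 ± 5.07 and 14.8 ± 4.38 CPM. These libraries overlapped those of DMSO in every line, so ABCA1 gives no such check for 1E5 and 3A4. Of 9 ductal epithelium markers, all 9 had counts with DMSO in BxPC-3 and PANC-1, and EPCAM, the epithelial adhesion molecule, had none in MIA PaCa-2. With DMSO, the 8 blood markers summed to 9.74 to 35.1 CPM over the 3 lines, with PTPRC, the pan-leukocyte marker, at 0 and CD68 or CD14 the highest. The 10 fibroblast and stellate markers summed to 18.4 to 22.5 CPM in BxPC-3 (3 of 10 at 0, PDGFRA the highest), to 145 to 290.5 CPM in MIA PaCa-2 (7 of 10 at 0, RGS5 the highest at 208 ± 75.1) and to 3.01 to 4.5 CPM for PANC-1 (6 of 10 at 0). In PANC-1, the library 1E5 replicate 2 stood apart from the other libraries of its group, with 6.59% of its counts from mitochondrial genes, a value within the DMSO range of 6% to 7.23%, where the other 1E5 libraries were at 2.69% and 3.91%.

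Promoter sequences are shown for 5 members on which the ligand results turn: LOX, which rose with 1E5 in MIA PaCa-2 and PANC-1; LAMB3 and ITGA2, which rose with 3A4 in both; SPARC, which fell with 1E5 in PANC-1; and TGFBI, which moved in opposite directions with 1E5 and 3A4 in MIA PaCa-2. Each run is the 250 bases before a RefSeq start of the gene, 5′ to 3′ on its strand, from the promoter windows of GRCh38.p14. LOX and LAMB3 have 3 windows each, of which the one farthest upstream is shown. Capitals mark a GC box (GGGCGG) or a TEAD element (GGAATG) on either strand. The positions are chr5:122078260-122078509 (minus strand) for LOX, chr1:209652426-209652675 (minus) for LAMB3, chr5:151686916-151687165 (minus) for SPARC, chr5:136028738-136028987 (plus) for TGFBI and chr5:52989102-52989351 (plus) for ITGA2.
LOX: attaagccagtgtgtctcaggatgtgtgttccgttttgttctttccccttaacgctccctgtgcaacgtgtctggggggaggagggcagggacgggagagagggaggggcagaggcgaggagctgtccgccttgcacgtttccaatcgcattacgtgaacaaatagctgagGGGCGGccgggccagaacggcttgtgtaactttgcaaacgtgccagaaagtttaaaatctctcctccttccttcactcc
LAMB3: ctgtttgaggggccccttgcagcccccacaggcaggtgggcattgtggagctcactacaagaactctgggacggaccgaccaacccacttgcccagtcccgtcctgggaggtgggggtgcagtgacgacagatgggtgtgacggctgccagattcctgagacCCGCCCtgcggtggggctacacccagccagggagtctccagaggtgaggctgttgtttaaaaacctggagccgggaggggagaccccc
SPARC: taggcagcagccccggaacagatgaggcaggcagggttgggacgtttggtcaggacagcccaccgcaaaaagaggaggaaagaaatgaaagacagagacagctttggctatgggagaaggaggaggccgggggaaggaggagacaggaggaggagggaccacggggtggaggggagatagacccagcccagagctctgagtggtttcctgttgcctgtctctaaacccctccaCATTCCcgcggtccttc
TGFBI: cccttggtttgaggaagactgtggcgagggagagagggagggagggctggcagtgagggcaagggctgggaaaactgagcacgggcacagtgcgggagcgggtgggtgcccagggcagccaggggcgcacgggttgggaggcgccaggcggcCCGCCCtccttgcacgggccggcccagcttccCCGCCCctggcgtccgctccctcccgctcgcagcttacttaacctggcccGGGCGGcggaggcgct
ITGA2: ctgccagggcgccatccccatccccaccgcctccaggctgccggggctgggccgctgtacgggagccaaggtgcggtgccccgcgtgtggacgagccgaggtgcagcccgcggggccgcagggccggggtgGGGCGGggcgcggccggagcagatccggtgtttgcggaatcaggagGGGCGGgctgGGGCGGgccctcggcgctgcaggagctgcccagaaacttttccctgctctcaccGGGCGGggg

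The LOX run holds 1 GC box that begins 79 bases before the start, and the other 2 LOX windows hold none. LAMB3 holds a GC box at 88. Of its other 2 windows, 1 overlaps the run shown and takes in this same box, and the other holds 1 of its own. SPARC holds a TEAD element at 17 on the reverse strand, TGFBI GC boxes at 98, 66 and 16, and ITGA2 GC boxes at 119, 73, 63 and 9. No marked matches share a base. Of the 42 members, 32 had a window (43 windows of 300 bases, which also take in 50 bases after the start). A GC box was in 31 of these 43 windows and in 45% of all 35116 windows of the table, an AP-1 element (TGANTCA) in 3 (LAMA3, ITGA5 and 1 of the 3 LAMB3 windows, which is not the one shown) and in 7.71%, a TEAD element in 5 (COL12A1, SPARC, THBS1, ITGA5 and ITGB1) and in 14%, and a TATA box (TATAAA) in 7 and in 11.5%. The direct repeat of AGGTCA with 4 bases between, the form bound by liver X receptors, was in 0 of the 43 and in 0.0199% of all windows. Windows of the same gene can overlap, so a match can be counted more than once. A match is a run of letters and not a measured site.

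With DMSO alone, the lines held different matrix and integrin programmes. BxPC-3 had the highest mean of COL17A1, COL4A5, COL7A1, LAMA3, LAMB3, ITGA6 and ITGB4. Other basement membrane genes were lowest there by mean: COL18A1, COL4A1, COL4A2 and LAMB2, at 6.45, 1.1, 0.133 and 0 CPM. MIA PaCa-2 carried COL1A2, COL5A2 and the 3 type VI collagen chains, beside LAMC1 at 164, LAMB2 at 135 and LAMA5 at 101 CPM. Its summed laminins took 0.0428% of counts, against 0.14% in PANC-1 and 0.23% in BxPC-3. PANC-1 carried COL18A1, COL5A2, ITGAV and SPARC. The 42 members took 0.798% ± 0.0318 of all counts in PANC-1, 0.371% ± 0.0199 in MIA PaCa-2 and 1.1% ± 0.0473 in BxPC-3 (SD, n = 3). By edgeR's quasi-likelihood test over 36 libraries, at an adjusted p under 0.05, MIA PaCa-2 had 11 members higher and 26 lower than BxPC-3, where 24.6% of all genes tested were higher and 32.7% lower. PANC-1 had 15 higher and 18 lower than BxPC-3 (25.5% and 27.1% of all genes), and 27 higher and 9 lower than MIA PaCa-2 (29.5% and 21.7%).

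**Figure D1:**
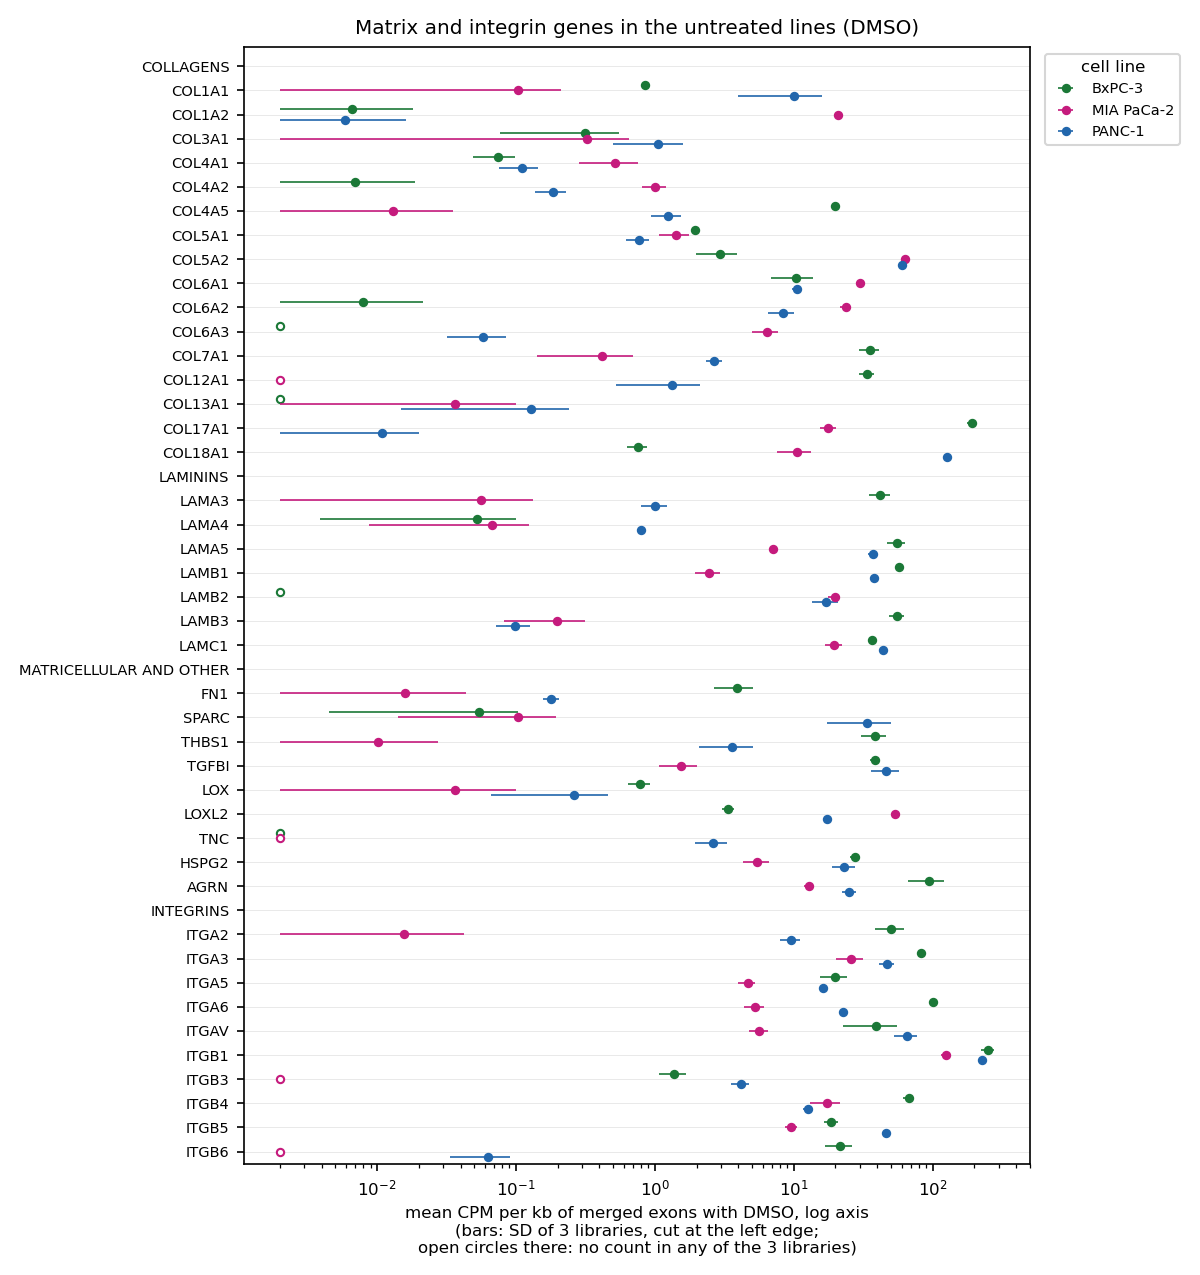
Level of each of the 42 members with DMSO in the 3 lines, in CPM per kilobase of merged exon on a log axis; points are means, bars the SD over 3 libraries, and open circles at the left edge are members with no count. ITGB1 was the highest member in each line, and 4 members had no count in BxPC-3 and 4 in MIA PaCa-2.

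Per kilobase of merged exon, a scale on which genes can be compared, ITGB1 (10:32900319-33005792, minus strand, ENSG00000150093), the beta subunit shared by most collagen-, laminin- and fibronectin-binding integrins, was the highest member in every line: 228 ± 11.9 CPM per kb in PANC-1, 125 ± 10.7 in MIA PaCa-2 and 251 ± 28.3 in BxPC-3. Next in BxPC-3 were COL17A1, the hemidesmosomal transmembrane collagen, at 191 ± 14.6 and ITGA6, the laminin-binding alpha subunit, at 100.1 ± 6.36 CPM per kb. In MIA PaCa-2 they were COL5A2, a type V fibrillar chain, at 63.7 ± 4.03 and LOXL2, a lysyl oxidase that cross-links collagen, at 53.8 ± 2.17. In PANC-1 they were COL18A1, a basement membrane collagen, at 128 ± 6.24 and ITGAV, the alpha subunit of RGD-binding integrins, at 65 ± 12.2 CPM per kb, the latter within its SD of COL5A2 at 60.7 ± 4.54. Per kilobase of the longest transcript ITGB1 stayed highest in every line, but ITGA3 then stood above ITGA6 in BxPC-3 (148 against 116) and above ITGAV in PANC-1 (84.4 against 75.9). On that scale LOXL2 stood above COL5A2 in MIA PaCa-2 (86.5 against 67.1). COL6A3, COL13A1, LAMB2 and TNC had no count with DMSO in BxPC-3, nor had COL12A1, TNC, ITGB3 and ITGB6 in MIA PaCa-2. Per kilobase of merged exon, the lowest members of PANC-1 were COL1A2, COL17A1 and COL6A3 at 0.00587, 0.0108 and 0.0584 CPM per kb.

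Among collagens, 9 of 16 were higher and 5 lower in MIA PaCa-2 than in BxPC-3. COL1A2 (7:94394561-94431232, ENSG00000164692), the alpha 2 chain of type I collagen, was at 233, 238 and 228 CPM with DMSO in MIA PaCa-2, but in BxPC-3 and in PANC-1 it had counts in 1 library each, at 0.222 and 0.196 CPM. Its partner chain COL1A1 (17:50183289-50201632, minus strand, ENSG00000108821) was ordered otherwise: 46.4, 163 and 85.2 CPM in PANC-1, 7.9, 8.94 and 8.19 in BxPC-3, and 0, 0.926 and 2.12 in MIA PaCa-2. The level of COL1A1 differed between each pair of lines (adjusted p at most 0.00102, edgeR), and no line held both type I chains above 10 CPM. COL18A1 was highest in PANC-1, at 1093 CPM on average, followed by MIA PaCa-2 at 89.8 and BxPC-3 at 6.45. COL17A1 had the opposite order, at 0.0765, 125 and 1350 CPM. COL12A1, a fibril-associated collagen, was at 420.4 ± 50.6 CPM in BxPC-3 and had no count in MIA PaCa-2, at least 2963-fold lower against a floor of 3 counts over the group. COL6A3, the long chain of type VI collagen, was at least 2860.3-fold higher in MIA PaCa-2, at 125 ± 26.4 CPM, than in BxPC-3, where it had no count.

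Laminin chains combine as alpha, beta and gamma trimers, and LAMA3 and LAMB3 are chains of laminin-332. Of the 7 laminins, 5 were lower and 1 higher in MIA PaCa-2 than in BxPC-3, and 5 were higher and none lower in PANC-1 than in MIA PaCa-2. LAMB3 was at 278, 224 and 278 CPM in BxPC-3 against 1.52, 0.463 and 0.794 in MIA PaCa-2 and 0.472, 0.589 and 0.335 in PANC-1. LAMA3 showed the same order of BxPC-3 over the others, with 620.5, 510.2 and 725 CPM, 0, 0.37 and 2.12 CPM, and 12.5, 13.6 and 18.2 CPM in the 3 lines. LAMB2, the beta chain of other basement membrane laminins, was the chain absent from BxPC-3: it had no count there and was at 118 ± 25.2 CPM in PANC-1 and 135 ± 13 CPM in MIA PaCa-2, at least 2698-fold and 3089.9-fold higher.

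Of the 9 matricellular and other matrix proteins, 8 were higher and 1 (LOXL2) lower in PANC-1 than in MIA PaCa-2. SPARC (5:151661096-151687165, minus strand, ENSG00000113140), a collagen-binding matricellular protein, was at 72.4, 219.8 and 196 CPM in PANC-1 and at 0.26 and 0.501 CPM on average in BxPC-3 and MIA PaCa-2. TNC, tenascin C, was at 20.3, 32.9 and 22.8 CPM in PANC-1 with no count in the other lines, at least 579-fold above BxPC-3. FN1, fibronectin, was highest in BxPC-3: 66.7, 46.6 and 88.9 CPM in BxPC-3, 3.02, 3.57 and 2.76 in PANC-1, and 0.833 in 1 of 3 MIA PaCa-2 libraries.

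All 10 integrin subunits were lower in MIA PaCa-2 than in BxPC-3, and 9 of 10 were higher in PANC-1 than in MIA PaCa-2. ITGA2 (5:52989326-53094779, ENSG00000164171), the collagen-binding alpha subunit, was at 289, 467 and 442 CPM in BxPC-3, 64.9, 72.4 and 88.8 in PANC-1 and at most 0.37 CPM in MIA PaCa-2. ITGB6, which pairs with ITGAV to activate latent TGF-beta, was at 101 ± 21.8 CPM in BxPC-3 and had no count in MIA PaCa-2, at least 711-fold lower. ITGAV, ITGB3 and ITGB5, subunits that bind RGD motifs, were higher in PANC-1 than in BxPC-3, although the ITGAV libraries overlapped (526, 438 and 638 against 233, 252 and 478 CPM; log2 fold change 0.74, adjusted p = 0.00379, edgeR). ITGB3 shares 51.57% of its exon bases with a read-through gene on the same strand, and ITGB6 20.61% of its own with another gene. Counts of these members are therefore uncertain. The ITGB3 read-through gene had no count with DMSO, 1E5 or 3A4 in any line. With GW3965 it was at 1.84 ± 1.59 CPM in PANC-1 and 0.0168 CPM in BxPC-3. COL18A1 (16.43%) and HSPG2 (11.72%) also overlap other genes, and the strand setting of the counting is not given in the sources used here.

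GW3965 changed no member in any line by edgeR's adjusted p. In BxPC-3, 34 members could be tested, and the background was 0.477% of all genes higher and 0.848% lower; 3 members had an unadjusted p under 0.05 and DESeq2 called 0. In MIA PaCa-2, 35 members were tested against a background of 0.418% higher and 0.105% lower, with 2 at an unadjusted p under 0.05 and 1 called by DESeq2 (COL6A3, log2 fold change 0.77). In PANC-1, 41 members were tested against 0.0431% higher and 0.00539% lower, with 0 at an unadjusted p under 0.05 and 0 by DESeq2. These backgrounds are of edgeR's adjusted calls, and none is given for the unadjusted p or for DESeq2. COL6A3 in MIA PaCa-2 had the smallest unadjusted p of the 3 lines (0.00144, adjusted 0.147): it was at 164, 118 and 116 CPM with DMSO and 229, 245 and 199 CPM with GW3965, groups that did not overlap. In BxPC-3, COL7A1, the anchoring fibril collagen, was at 323, 436 and 340.4 CPM with DMSO and 462, 585 and 454 with GW3965 (log2 difference 0.45, 95% interval 0.12 to 0.77, adjusted p = 0.229). For ITGB1 the 95% intervals of the log2 difference were -0.22 to 0.26 in PANC-1, -0.15 to 0.40 in BxPC-3 and -0.02 to 0.49 in MIA PaCa-2.

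Members outside these tests had counts too low for the filter in that line. They were COL1A2, COL4A2, COL6A2, COL6A3, COL13A1, LAMB2, SPARC and TNC in BxPC-3; COL4A5, COL12A1, SPARC, THBS1, TNC, ITGB3 and ITGB6 in MIA PaCa-2; and COL1A2 in PANC-1. GW3965, 1E5 and 3A4 are each compared with the same 3 DMSO libraries of a line, so their differences from DMSO are given side by side and are not independent of each other. Whether the libraries of compared groups overlapped is given to show the spread of a member. Overlap was not counted over all genes, and the members so described were mostly picked by their call. It is therefore no added support for a call.

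**Figure D2:**
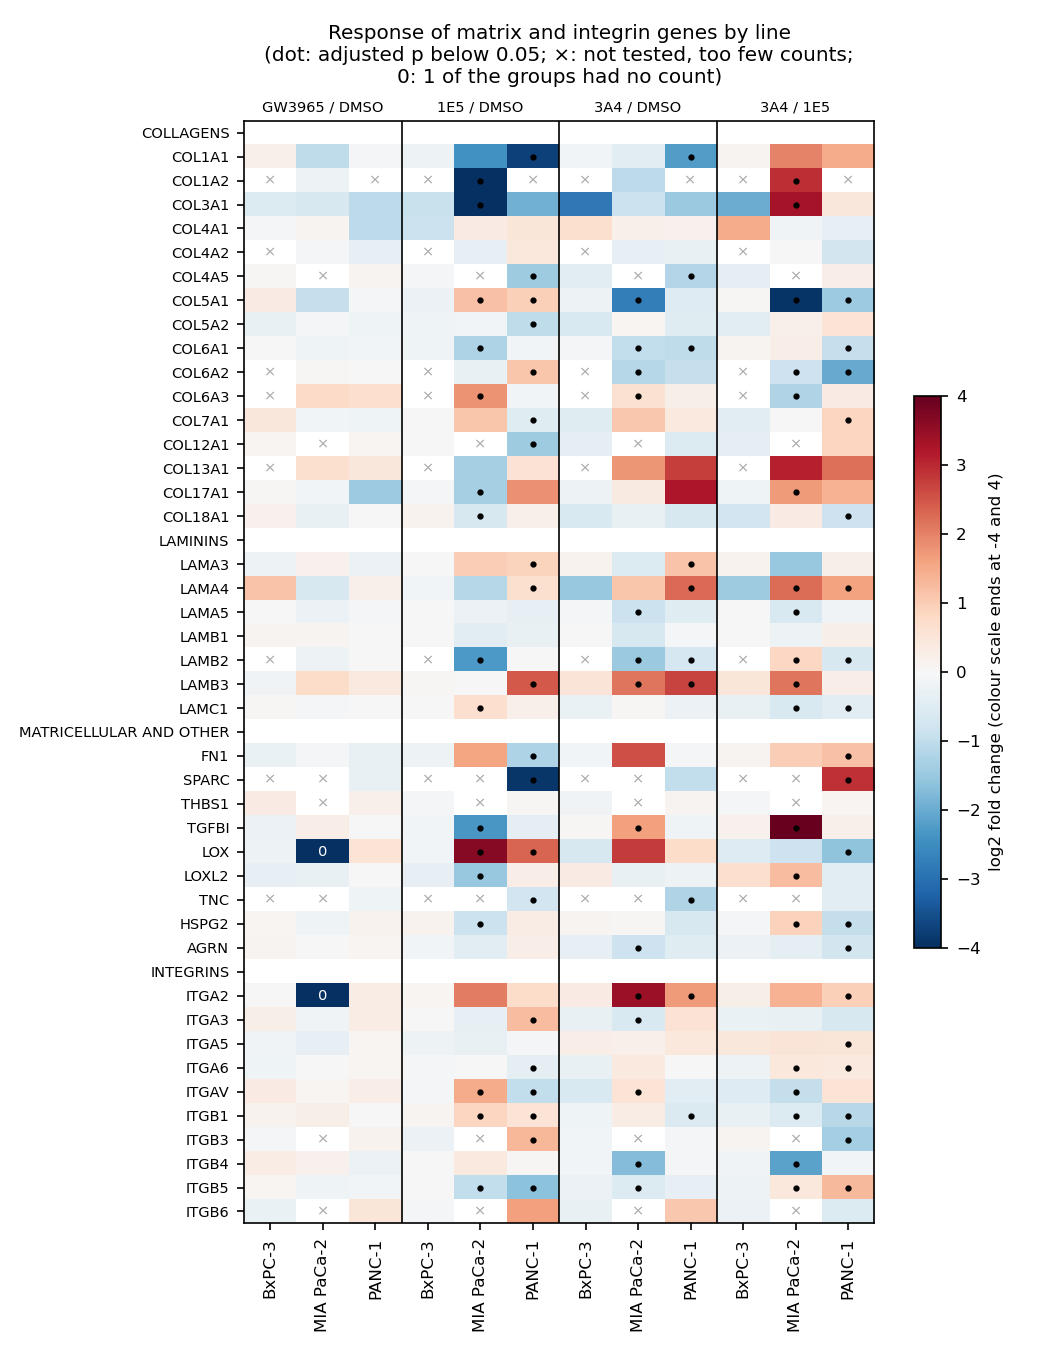
Log2 fold change of the 42 members (rows) in 12 contrasts (columns; colour scale in log2 units), with a dot where edgeR's adjusted p was under 0.05, × where a member was not tested and 0 where a compared group had no count. Calls lay in the 1E5 and 3A4 columns of MIA PaCa-2 and PANC-1, with none in the GW3965 columns or in BxPC-3.

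With 1E5 in MIA PaCa-2, COL1A2, LAMB2, TGFBI and LOXL2 fell several-fold while COL6A3, ITGAV and ITGB1 rose. Of 35 members tested, 6 were higher and 10 lower, against 23.6% of all genes higher and 23.4% lower. The median log2 fold change was -0.31 over the 35 members and 0.05 over all genes tested. Beside these members, the summed level of the 9 ductal epithelium markers was 1529.5 to 1889.6 CPM with DMSO and 569.7 to 683 CPM with 1E5, and 5 of the 7 tested fell. The 8 endothelial markers summed to 85.9 to 96.3 and 20.8 to 34.1 CPM (PECAM1, VWF, KDR, TEK and ERG at 0), the 10 fibroblast and stellate markers to 145 to 290.5 and 63.5 to 90.8 CPM (DCN, LUM, FAP and POSTN at 0), of which RGS5 made up 208 ± 75.1 and 66.3 ± 15.7 CPM, and the 8 blood markers to 21.1 to 35.1 and 4.68 to 8.23 CPM (PTPRC, CD3E, HBB and LYZ at 0). Mitochondrial genes took 7.52% to 7.58% of counts with DMSO and 1.49% to 2.86% with 1E5. The part of these shifts in the member results was not tested.

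Among 14 collagens tested in MIA PaCa-2, 2 rose and 5 fell with 1E5. COL1A2 was at 246, 245 and 249.8 CPM with DMSO and 9, 9.93 and 27.4 CPM with 1E5 (log2 fold change -4.0, SE 0.387, adjusted p = 7.3e-06, edgeR), and -4.70 without 1E5 replicate 3, its highest treated library. COL3A1, type III collagen, was close to the detection limit, at 1.13, 0.856 and 5.22 CPM with DMSO and 0.184, 0.152 and 0 with 1E5 (log2 -4.21, SE 0.956, adjusted p = 0.00314), and -3.02 without DMSO replicate 3. The 2 groups did not overlap for either gene. The type VI chains parted: COL6A3 rose from 164, 118 and 116 to 404, 422 and 555 CPM (log2 1.79, SE 0.191, adjusted p = 1.46e-05) and COL6A1 fell from 169, 161 and 184 to 49.4, 66.9 and 101 CPM (log2 -1.24, SE 0.236, adjusted p = 0.000956). COL6A2, the other chain of the type VI trimer, had a log2 difference of -0.31 that did not pass. COL17A1 fell from 119, 122 and 159 to 60.7, 59.1 and 39.7 CPM (log2 -1.32, SE 0.206, adjusted p = 0.000222), again without overlap. COL5A1, a type V chain, was at 19.5, 11.7 and 19.7 CPM and then 30.4, 38.5 and 43.6 CPM (log2 1.16, adjusted p = 0.0336), a call that ended when any library but 1E5 replicate 1 was left out (adjusted p 0.051 to 0.118). COL18A1 (log2 -0.65, adjusted p = 0.0471) had overlapping groups and lost its call without 1E5 replicates 1 or 2 or DMSO replicates 1 or 3 (adjusted p 0.0633 to 0.246).

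Of 7 laminins in MIA PaCa-2, LAMB2 fell and LAMC1, the gamma chain common to most laminins, rose with 1E5. LAMB2 (3:49121114-49133118, minus strand, ENSG00000172037) went from 157, 126 and 148 CPM to 24.6, 26.7 and 35.3 CPM, a log2 fold change of -2.31 (SE 0.264, adjusted p = 2.38e-05, edgeR). LAMC1 went from 198, 168 and 156 to 249, 280.4 and 297 CPM (log2 0.66, SE 0.16, adjusted p = 0.00471). Neither pair of groups overlapped. LAMA5, the alpha chain of adult epithelial basement membranes, had a log2 difference of -0.24 that did not pass.

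Of 6 matricellular and other matrix proteins tested in MIA PaCa-2, 3 fell and 1 rose with 1E5. TGFBI (5:136028895-136063818, ENSG00000120708), a TGF-beta-induced adhesion protein, fell from 16.9, 11.9 and 9.57 to 2.77, 2.2 and 2.75 CPM (log2 -2.32, SE 0.267, adjusted p = 2.5e-05, edgeR). LOXL2 fell from 325, 328 and 323 to 109, 119 and 113 CPM, with the narrowest spread among the members that fell (log2 -1.52, SE 0.13, adjusted p = 3.26e-06). Its relative LOX (5:122063195-122078360, minus strand, ENSG00000113083), lysyl oxidase, moved the other way: it was at 0.644, 0 and 0 CPM with DMSO and 3.43, 2.62 and 2.14 CPM with 1E5 (log2 3.64, SE 0.925, adjusted p = 0.0078). With so few counts in the control, the log2 fold change of LOX ranged with the library left out. It was 8.37 without DMSO replicate 1 and 2.82 without DMSO replicate 2. HSPG2, the proteoglycan perlecan, had overlapping groups (log2 -0.86, adjusted p = 0.0237) and lost its call without 1E5 replicates 1 or 2 or DMSO replicates 1 or 3 (adjusted p 0.0508 to 0.105).

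Of 8 integrin subunits tested in MIA PaCa-2, ITGAV and ITGB1 rose and ITGB5 fell with 1E5. ITGAV (2:186590065-186680901, ENSG00000138448) went from 54.2, 51.4 and 41.5 to 147, 140 and 127 CPM (log2 1.49, SE 0.139, adjusted p = 5.63e-06, edgeR). ITGB1 went from 819, 828 and 747 to 1516, 1495 and 1330 CPM (log2 0.86, SE 0.12, adjusted p = 0.000103). ITGB5 (3:124761948-124901418, minus strand, ENSG00000082781), a beta subunit that pairs with ITGAV, went from 62.9, 71.5 and 62.7 to 31, 37.2 and 32.6 CPM (log2 -0.97, SE 0.148, adjusted p = 0.000195). The groups did not overlap for any of these 3 subunits, and each call held with any 1 library left out. ITGA2, ITGA3, ITGA5, ITGA6 and ITGB4 did not pass.

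With 1E5 in PANC-1, COL1A1 and SPARC fell about as far as COL1A2 had in MIA PaCa-2, and ITGAV and ITGB5 fell while ITGA3, ITGB1, ITGB3, LOX and 3 laminin chains rose. Of 41 members tested, 9 were higher and 11 lower, against 19.7% of all genes higher and 19.3% lower, and the median log2 fold change was 0.05 over members and 0.02 over all genes. Leaving out 1E5 replicate 2, which stood apart, raised the count to 30 of 41 (11 higher, 19 lower). The shares of all genes above are from the fit with every library, so this count has no background share beside it. The added calls without that library were COL3A1 (log2 -4.02), COL6A1 (-0.60), LAMA5 (-0.69), LAMB1 (-0.72), TGFBI (-0.98), LOXL2 (-0.55), ITGA5 (-0.29) and ITGB4 (-0.36) as lower and ITGA2 (0.96) and ITGB6 (1.97) as higher. Of these, LOXL2 (0.27) and ITGB4 (0.05) had the opposite sign with all libraries. Beside these members, the ductal epithelium markers summed to 3422 to 5471 CPM with DMSO and 830 to 1059 CPM with 1E5, where 5 of 9 tested fell, and the blood markers to 9.74 to 16.3 and 45.1 to 78.6 CPM, of which CD68 made up 11.9 and 57.2 CPM on average with PTPRC, CD3E, HBB and CSF1R at 0. The fibroblast markers summed to 3.01 to 4.5 CPM with DMSO and 6.16 to 8.57 CPM with 1E5 (DCN, LUM, FAP, DES and POSTN at 0 in both), and the endothelial markers to 36.1 to 44.4 and 41.8 to 55 CPM. The mitochondrial share was 6% to 7.23% with DMSO and 2.69%, 6.59% and 3.91% in 1E5 replicates 1, 2 and 3. The part of these shifts was not tested.

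Of 15 collagens tested in PANC-1, 2 rose and 5 fell with 1E5. COL1A1 was at 48.4, 168 and 88.8 CPM with DMSO and 4.73, 11.8 and 6.31 CPM with 1E5 (log2 fold change -3.74, SE 0.612, adjusted p = 0.000653, edgeR). COL4A5, a type IV basement membrane chain, fell from 17.2, 17.5 and 11.1 to 5.52, 7.28 and 4.22 CPM (log2 -1.43, SE 0.289, adjusted p = 0.00247). COL5A2 fell from 432, 494 and 484 to 145, 371 and 174 CPM (log2 -1.03, SE 0.276, adjusted p = 0.0119), with 1E5 replicate 2 nearest to the control libraries. The type V and VI chains that rose were COL5A1, from 9.38, 10.3 and 7.06 to 20.6, 16.8 and 14.3 CPM (log2 0.95, adjusted p = 0.00658), and COL6A2, from 44.6, 57.2 and 38.3 to 75.4, 131 and 95.9 CPM (log2 1.11, adjusted p = 0.00618). The groups did not overlap for these 5 genes. COL12A1 also fell, from 28.8, 14.5 and 8.38 to 5.96, 8.12 and 5.18 CPM (log2 -1.42, adjusted p = 0.029), and lost its call without 1E5 replicates 1 or 3 or DMSO replicate 1 (adjusted p 0.0735 to 0.153). COL7A1 (log2 -0.47, adjusted p = 0.0329) overlapped between groups and lost its call without 1E5 replicates 1 or 3 or DMSO replicates 2 or 3 (adjusted p 0.092 to 0.116).

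Of 7 laminins in PANC-1, 3 rose and none fell with 1E5. LAMB3 rose from 0.493, 0.608 and 0.349 to 3.1, 3.15 and 1.78 CPM (log2 2.46, SE 0.449, adjusted p = 0.00132, edgeR) and LAMA3, its alpha partner in laminin-332, from 13.1, 14 and 19 to 21.9, 36 and 28.1 CPM (log2 0.90, SE 0.193, adjusted p = 0.00349). LAMA4, an alpha chain of vascular and mesenchymal laminins, rose from 9.28, 9.17 and 10.3 to 15.4, 16.2 and 13.6 CPM (log2 0.65, SE 0.159, adjusted p = 0.00742), though not in the fit over all 36 libraries (adjusted p = 0.317). No pair of groups overlapped. Even with 1E5, LAMB3 in PANC-1 stayed below its lowest DMSO library in BxPC-3.

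Of 9 matricellular and other matrix proteins in PANC-1, SPARC, FN1 and TNC fell and LOX rose with 1E5. SPARC was at 75.6, 227 and 204 CPM with DMSO and 3.54, 24.9 and 6.11 CPM with 1E5 (log2 -3.88, SE 0.733, adjusted p = 0.00162, edgeR), and -5.12 without 1E5 replicate 2. FN1 went from 3.16, 3.69 and 2.87 to 1.31, 1.64 and 1.2 CPM (log2 -1.23, SE 0.257, adjusted p = 0.00304). LOX went from 0.493, 2.72 and 1.32 to 10.7, 5.02 and 7.51 CPM (log2 2.34, SE 0.49, adjusted p = 0.00301), and 3.05 without DMSO replicate 2. No library of one group reached the range of the other for these 3 genes. TNC fell from 21.2, 34 and 23.8 to 14.1, 19.1 and 13.4 CPM (log2 -0.76, adjusted p = 0.0162), with its call lost without 1E5 replicates 1 or 3 or DMSO replicate 2 (adjusted p 0.0501 to 0.0654).

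Of 10 integrin subunits in PANC-1, 3 rose and 3 fell with 1E5. ITGB5 fell from 308, 319 and 305 to 80.5, 127 and 91.5 CPM (log2 -1.64, SE 0.185, adjusted p = 5.19e-05, edgeR) and ITGAV from 549, 452 and 664 to 218, 404 and 221 CPM (log2 -0.98, SE 0.219, adjusted p = 0.00437). ITGB3, another RGD-binding partner of ITGAV, rose from 22.3, 18.2 and 16.7 to 39.8, 60 and 42.7 CPM (log2 1.32, SE 0.23, adjusted p = 0.000983). The laminin receptor subunits moved apart as well. ITGA3 (17:50055968-50090481, ENSG00000005884) rose from 554, 449 and 440.4 to 902, 1613 and 873 CPM (log2 1.23, SE 0.242, adjusted p = 0.00208) and ITGA6 fell from 153, 151 and 158 to 108, 125 and 122 CPM (log2 -0.38, SE 0.0922, adjusted p = 0.00704). ITGB1 rose from 1436, 1344 and 1504 to 1959, 2387 and 1891 CPM (log2 0.54, SE 0.11, adjusted p = 0.00253). None of the 6 pairs of groups overlapped, which was not counted over all genes, and each call held with any 1 library left out.

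**Figure D3:**
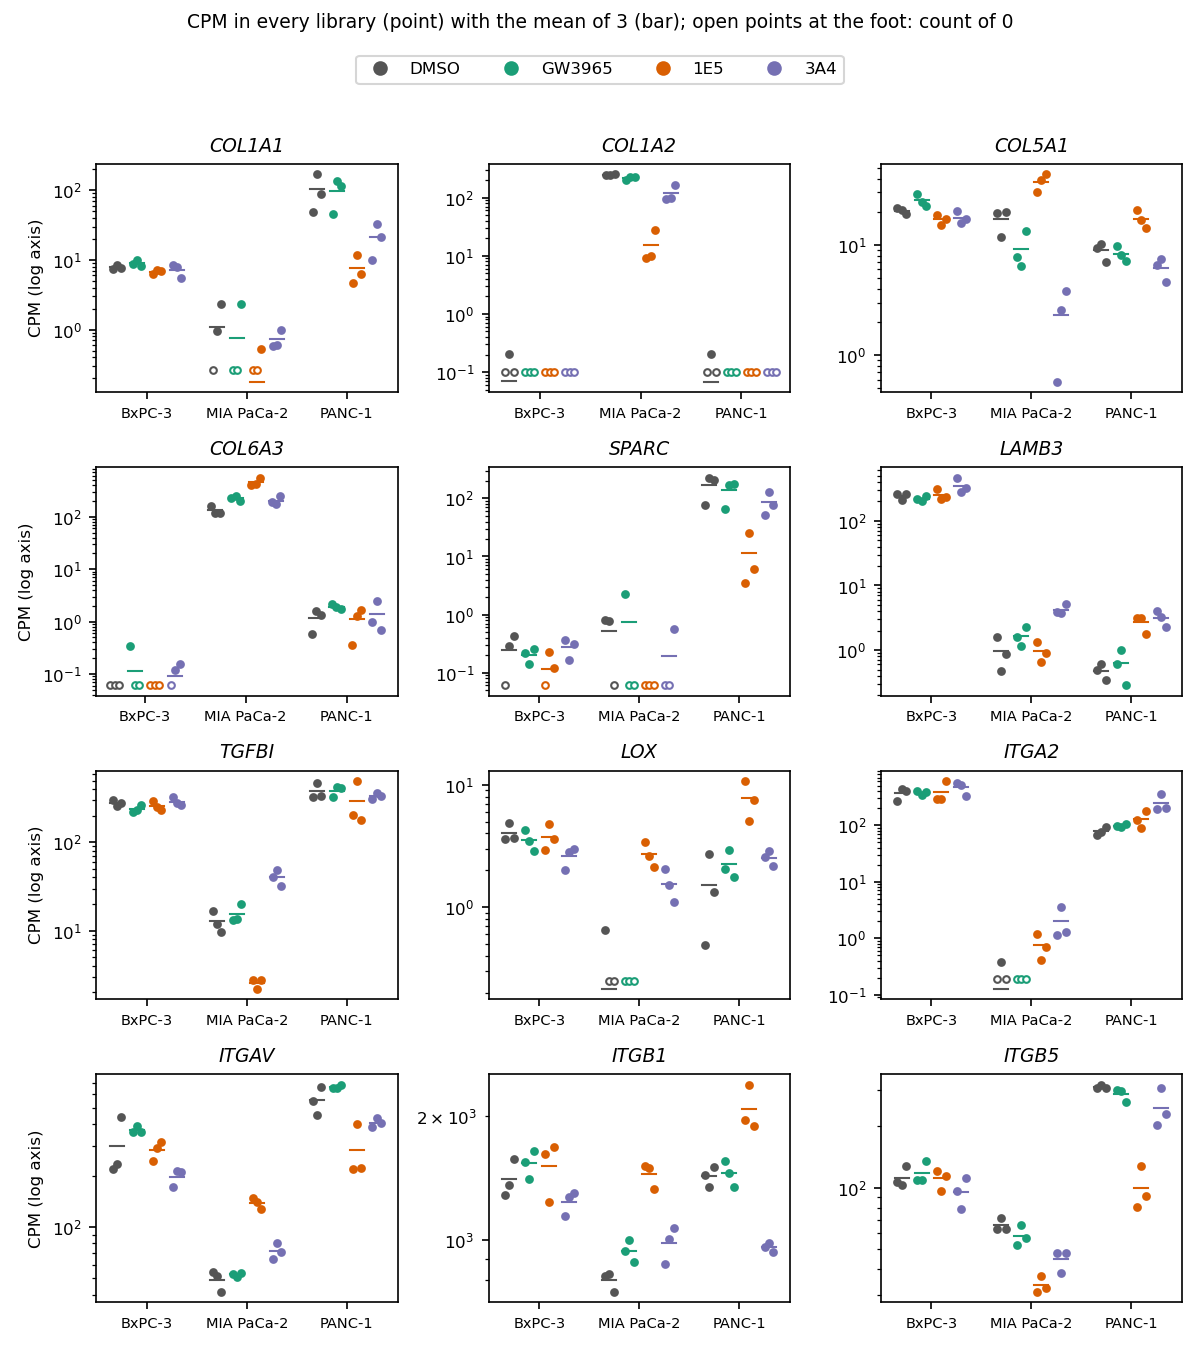
CPM of 12 members in each of the 36 libraries, by line and ligand; points are libraries, bars the mean of 3, and open points libraries with no count. COL1A2 in MIA PaCa-2 fell from 246, 245 and 249.8 CPM to 9, 9.93 and 27.4 CPM with 1E5, and ITGAV with 1E5 was above its DMSO libraries in MIA PaCa-2 and below them in PANC-1.

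In BxPC-3, 1E5 changed no member and no gene: 0 of 34 members were called, the background was 0% higher and 0% lower, 0 members had an unadjusted p under 0.05 and DESeq2 called 0. The 95% interval of the log2 difference was -0.17 to 0.38 for ITGB1, -0.33 to 0.21 for COL17A1, -0.36 to 0.49 for LAMB3 and -0.38 to 0.16 for TGFBI.

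Whether the 1E5 response differed among the lines was tested directly, as an interaction in the fit over all 36 libraries. It did for 23 of 42 members, 54.8%, against 38.5% of all genes tested. They were 9 of the 16 collagens, 3 laminins (LAMB2, LAMB3 and LAMC1), 5 matricellular and other matrix proteins (FN1, TGFBI, LOX, LOXL2 and HSPG2) and 6 integrins (ITGA3, ITGAV, ITGB1, ITGB3, ITGB5 and ITGB6). ITGAV had the smallest p (adjusted p = 6.07e-07), with log2 fold changes of -0.99 in PANC-1, 1.58 in MIA PaCa-2 and -0.09 in BxPC-3. LAMB2 (adjusted p = 5.23e-05) changed by -0.04 in PANC-1 and -2.22 in MIA PaCa-2, LAMB3 (0.000237) by 2.45 and 0.16, and TGFBI (0.000104) by -0.39 and -2.24. COL4A5, COL6A2, COL6A3, COL17A1, LAMB2, LAMB3, FN1, LOX, ITGB3 and ITGB6 had a mean under 1 CPM with DMSO in at least 1 line, so their fitted change there has few counts behind it. For GW3965 the response differed among lines for 0 of 42 members, against 0.104% of all genes.

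With 3A4 in MIA PaCa-2, TGFBI and LAMB3 rose and COL5A1, ITGB4, LAMB2 and COL6A2 fell. Of 35 members tested, 5 were higher and 9 lower, against 7.3% of all genes higher and 6.45% lower, and the median log2 fold change was 0.05 over members and 0.03 over all genes. Only COL5A1, LAMB2, TGFBI and ITGB4 of these 14 kept their call in every alternative run. Leaving out 3A4 replicate 2 gave 4 calls, DMSO replicate 3 gave 5, DMSO replicate 2 gave 8, and the 2 shallowest libraries together gave 5. The count was 9 with only the compared groups in the fit (2 higher, 7 lower) and 17 in the fit over all 36 libraries (10 higher, 7 lower). No share of all genes from the same fits stands beside these counts. The ductal epithelium markers summed to 1529.5 to 1889.6 CPM with DMSO and 1181 to 1645 CPM with 3A4, and the blood markers to 21.1 to 35.1 and 21.5 to 31.8 CPM. The endothelial markers went from 85.9 to 96.3 down to 51.6 to 70.3 CPM (ENG the highest; PECAM1, KDR and ERG at 0 in both) and the fibroblast markers from 145 to 290.5 down to 95 to 139 CPM (DCN, LUM, FAP and POSTN at 0 in both), and the mitochondrial share was 7.52% to 7.58% and 5.53% to 6.62%, none of them overlapping. The part of these shifts was not tested.

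Among collagens in MIA PaCa-2, 1 of 14 rose and 3 fell with 3A4. COL5A1 (9:134641774-134844843, ENSG00000130635) fell from 19.5, 11.7 and 19.7 CPM to 0.573, 2.56 and 3.81 CPM (log2 fold change -2.77, SE 0.452, adjusted p = 0.00371, edgeR). COL6A1 fell from 169, 161 and 184 to 84.4, 68 and 105 CPM (log2 -0.99, adjusted p = 0.0179) and COL6A2 from 136, 120.3 and 154 to 67, 40 and 78.6 CPM (log2 -1.14, adjusted p = 0.0166). COL6A3 rose from 164, 118 and 116 to 188, 173 and 245 CPM (log2 0.61, adjusted p = 0.0484). No group overlapped, but without 3A4 replicate 2 or DMSO replicate 3 the calls of COL6A1 (adjusted p 0.0621 to 0.0805) and COL6A2 (0.061 to 0.0634) were lost, and that of COL6A3 without 3A4 replicates 2 or 3 or DMSO replicates 2 or 3 (0.0658 to 0.162).

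Among laminins in MIA PaCa-2, LAMB2 and LAMA5 fell and LAMB3 rose with 3A4. LAMB2 went from 157, 126 and 148 to 59.2, 30.8 and 62.8 CPM (log2 -1.50, SE 0.258, adjusted p = 0.00492, edgeR). LAMA5 went from 111, 101 and 109 to 57.5, 45.7 and 73.6 CPM (log2 -0.86, adjusted p = 0.0254). LAMB3 (1:209614870-209652466, minus strand, ENSG00000196878) went from 1.61, 0.476 and 0.87 to 3.89, 3.7 and 5.11 CPM (log2 2.13, SE 0.525, adjusted p = 0.0207), and 2.78 without DMSO replicate 1. No group overlapped for these 3 chains. The LAMA5 call held only without 3A4 replicate 3 among the 6 left-out fits (otherwise adjusted p 0.0532 to 0.106), and the LAMB3 call was lost without 3A4 replicates 2 or 3 or DMSO replicates 2 or 3 (0.057 to 0.075).

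TGFBI was the matrix protein that rose with 3A4 in MIA PaCa-2, from 16.9, 11.9 and 9.57 to 40.8, 49.2 and 31.8 CPM (log2 1.65, SE 0.253, adjusted p = 0.00265, edgeR). AGRN, the proteoglycan agrin, was at 154, 129 and 156 and then 67.7, 57.7 and 118 CPM (log2 -0.84, adjusted p = 0.0393), and its call held only when 3A4 replicate 3 was the library left out (otherwise 0.063 to 0.154). Among 8 integrins, 2 rose and 3 fell. ITGB4 (17:75721328-75757818, ENSG00000132470), the hemidesmosomal beta subunit, fell from 152, 122 and 96 to 33.6, 24.4 and 52.7 CPM (log2 -1.74, SE 0.339, adjusted p = 0.00833). The other integrin calls were small or rested on few counts. ITGA2 was at 0, 0.381 and 0 CPM with DMSO and 1.15, 3.54 and 1.3 CPM with 3A4 (log2 3.44, adjusted p = 0.0435), with 2.74 when 3A4 replicate 2 and 7.90 when DMSO replicate 2 was left out, and no call without 3A4 replicates 2 or 3 or DMSO replicates 1 or 3 (0.063 to 0.182). ITGAV was at 64.6, 80.5 and 70.9 CPM with 3A4 (log2 0.55, adjusted p = 0.0221), ITGB5 at 48.2, 38.5 and 48.3 CPM (-0.55, 0.0295) and ITGA3 at 197, 149.8 and 178 CPM (-0.62, 0.0425). Those 3 calls were lost without 3A4 replicate 2 or DMSO replicate 2, and in further fits without DMSO replicate 3 for ITGAV, DMSO replicates 1 or 3 for ITGB5, and 3A4 replicates 1 or 3 or DMSO replicate 1 for ITGA3 (0.0518 to 0.162 in all).

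With 3A4 in PANC-1, 3 laminin chains and ITGA2 rose, while COL1A1, COL4A5, COL6A1, LAMB2, TNC and ITGB1 fell. Of 41 members tested, 4 were higher and 6 lower, against 3.53% of all genes higher and 3.84% lower, with a median log2 fold change of -0.19 over members and 0.01 over all genes. The 4 that rose kept their call in every alternative run. With the 1E5 libraries out of the fit the count was 21 (7 higher, 14 lower), and with only the DMSO and 3A4 libraries in it 19 (7 higher, 12 lower). It was 4 without 3A4 replicate 1, 5 without 3A4 replicate 3 and 6 without DMSO replicate 2. No share of all genes from the same fits stands beside these counts. The ductal epithelium markers summed to 3422 to 5471 CPM with DMSO and 3153 to 4016 CPM with 3A4, and the blood markers to 9.74 to 16.3 and 48.2 to 49.7 CPM, mostly CD68 (CD3E and HBB at 0). The fibroblast markers summed to 3.01 to 4.5 and 3.58 to 5.4 CPM, the endothelial markers to 36.1 to 44.4 and 40 to 49.7 CPM, and the mitochondrial share was 6% to 7.23% and 7.54% to 7.92%. The part of these shifts was not tested.

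LAMA4 (6:112108760-112254939, minus strand, ENSG00000112769) rose from 9.28, 9.17 and 10.3 to 51.4, 44.6 and 40.7 CPM (log2 2.25, SE 0.164, adjusted p = 8.28e-05, edgeR), the smallest p among the members for this ligand. LAMA3 rose from 13.1, 14 and 19 to 33, 32.5 and 35.3 CPM (log2 1.13, SE 0.193, adjusted p = 0.00703) and LAMB3 from 0.493, 0.608 and 0.349 to 3.98, 3.29 and 2.3 CPM (log2 2.71, SE 0.451, adjusted p = 0.00606). Both chains of laminin-332 on the list were therefore above every DMSO library. LAMB2 was at 98.4, 149 and 121 and then 70.6, 83.3 and 76.8 CPM (log2 -0.68, adjusted p = 0.0348), and this call was lost without any single library except DMSO replicate 1 (0.0667 to 0.132).

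Each of the 3 collagens that fell with 3A4 in PANC-1 lost its call in at least 4 of the 6 fits with a library left out. COL1A1 was at 48.4, 168 and 88.8 and then 10, 32.9 and 21 CPM (log2 -2.25, SE 0.569, adjusted p = 0.0361, edgeR), with the call lost without 3A4 replicates 1 or 3 or DMSO replicates 2 or 3 (0.0736 to 0.134). COL4A5 was at 7.03, 8.73 and 4.53 CPM with 3A4 (log2 -1.17, adjusted p = 0.0334), lost without 3A4 replicates 1 or 3 or DMSO replicates 1 or 2 (0.0835 to 0.116). COL6A1 was at 58.5, 62.5 and 54.5 and then 27.6, 31.4 and 26.7 CPM (log2 -1.03, adjusted p = 0.0336), lost without any single library (0.0704 to 0.119), although its groups lay well apart. TNC fell to 9.28, 14.3 and 11 CPM (log2 -1.19, SE 0.22, adjusted p = 0.0101; 0.0528 without 3A4 replicate 1). Among integrins, ITGA2 rose from 67.8, 74.8 and 92.5 to 192, 361 and 205 CPM (log2 1.69, SE 0.278, adjusted p = 0.00591). ITGB1 fell to 961, 981 and 936 CPM (log2 -0.57, SE 0.11, adjusted p = 0.012), where 1E5 had raised it, and lost its call without 3A4 replicates 1 or 3 (0.0532 to 0.054).

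In BxPC-3, 3A4 changed 0 of 34 members by edgeR, against 0.0277% of all genes higher and 0.00554% lower. An unadjusted p under 0.05 was reached by 11 members, and DESeq2 called 3 as lower (COL3A1, COL4A5 and ITGA6). The share of all genes by either of these measures is not given here, so neither count is shown to exceed it. COL4A5 was at 216, 231 and 212 CPM with DMSO and 167, 163 and 162 CPM with 3A4 (log2 difference -0.42, 95% interval -0.64 to -0.21, adjusted p = 0.161), groups that did not overlap. LAMB3, called as higher in both other lines, was at 261, 209 and 258 CPM and then 463, 274 and 317 CPM (log2 difference 0.53, 95% interval 0.11 to 0.96, adjusted p = 0.301). The 3A4 response differed among the lines for 12 of 42 members, 28.6%, against 5.89% of all genes. They were COL5A1, COL7A1, COL17A1, LAMA4, LAMB3, TGFBI, LOX, ITGA3, ITGA6, ITGAV, ITGB1 and ITGB4. COL5A1 (adjusted p = 0.00191) changed by -0.53, -2.65 and -0.22 in PANC-1, MIA PaCa-2 and BxPC-3, TGFBI (0.00243) by -0.19, 1.74 and 0.04, and LAMB3 (0.00325) by 2.71, 2.30 and 0.52. COL17A1, LAMA4, LAMB3 and LOX had a mean under 1 CPM with DMSO in at least 1 line.

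Because 1E5 and 3A4 carry the same label and were used at the same dose and time, they were also compared with each other, 1 pair of compounds in each of the 3 lines. Members differed between them in MIA PaCa-2 and PANC-1, and none was called in BxPC-3. In MIA PaCa-2, 11 of 35 members were higher and 8 lower with 3A4 than with 1E5, against 17.2% of all genes higher and 15.1% lower. In PANC-1, 8 of 41 were higher and 11 lower, against 18.5% and 18.8%. In BxPC-3, 0 of 34 were called, against 0.0887% higher and 0.0554% lower, with 14 at an unadjusted p under 0.05 and 3 called by DESeq2 (COL4A5, LAMC1 and LOXL2). The share of all genes at that unadjusted p, or called by DESeq2, is not given here. The 95% interval of the difference in BxPC-3 was -0.56 to -0.01 for ITGB1, -0.43 to 0.11 for COL17A1, 0.05 to 0.89 for LAMB3 and -0.11 to 0.43 for TGFBI, so differences of up to these sizes are not excluded. Beside these calls, the ductal epithelium markers summed to 569.7 to 683 CPM with 1E5 and 1181 to 1645 CPM with 3A4 in MIA PaCa-2, and to 830 to 1059 and 3153 to 4016 CPM in PANC-1. The mitochondrial share was 2.04% ± 0.722 and 5.96% ± 0.58 in MIA PaCa-2 and 4.4% ± 2 and 7.7% ± 0.196 in PANC-1, and the part of these shifts was not tested.

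In MIA PaCa-2, TGFBI separated the compounds most clearly: 2.77, 2.2 and 2.75 CPM with 1E5 and 40.8, 49.2 and 31.8 CPM with 3A4, a log2 difference of 3.98 (95% interval 3.39 to 4.57, adjusted p = 1.23e-06, edgeR), with the DMSO libraries between them. COL5A1 was at 30.4, 38.5 and 43.6 CPM with 1E5 and 0.573, 2.56 and 3.81 with 3A4 (log2 -3.93, interval -4.92 to -2.94, adjusted p = 4.88e-05), with DMSO again between. ITGB4 was at 99.5, 137 and 254 CPM and 33.6, 24.4 and 52.7 CPM (log2 -2.15, interval -2.88 to -1.41, adjusted p = 0.00045). The comparisons of 1E5 with DMSO and with 3A4 share the 1E5 libraries of a line, so their results are not independent of each other. The fibrillar and hemidesmosomal collagens that 1E5 lowered were higher with 3A4, as was the cross-linking enzyme LOXL2. COL1A2 was at 92.8, 98.6 and 165 CPM with 3A4 (log2 2.95, interval 2.15 to 3.75, adjusted p = 8.58e-05; 3.65 without 1E5 replicate 3), COL17A1 at 146, 198 and 169 CPM (log2 1.69, adjusted p = 6.95e-05) and LOXL2 at 272, 244 and 281 CPM (log2 1.22, adjusted p = 2.35e-05). COL3A1 was at 1.03, 0.732 and 1.88 CPM (log2 3.34, adjusted p = 0.014; 0.062 without 3A4 replicate 3). Of the 6 members that 1E5 raised, COL5A1 and 4 others were lower with 3A4: COL6A3 by a log2 difference of -1.19 (adjusted p = 0.000421), ITGAV by -0.94 (0.000223), ITGB1 by -0.56 (0.00328) and LAMC1 by -0.60 (0.0121; 0.0695 without 3A4 replicate 1). LOX, the remaining one, did not pass, at 3.43, 2.62 and 2.14 CPM with 1E5 and 2.06, 1.5 and 1.09 CPM with 3A4 (log2 -0.83, interval -2.33 to 0.67, adjusted p = 0.388). LAMB3 was higher with 3A4 (log2 2.13, adjusted p = 0.00443).

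The other 7 calls in MIA PaCa-2 were smaller or unsteady. COL6A2 (-0.83), LAMA4 (2.24), LAMA5 (-0.62), LAMB2 (0.82), HSPG2 (0.91), ITGA6 (0.43) and ITGB5 (0.42) each lost the call in at least 3 of the 6 fits with a library left out, with adjusted p up to 0.191. For COL6A2 these were the fits without 1E5 replicate 3 or 3A4 replicates 1 or 2, and for LAMA4 those without 1E5 replicates 1 or 2 or 3A4 replicate 3. LAMA5 lost it without 1E5 replicates 2 or 3 or 3A4 replicates 1 or 2, LAMB2 and HSPG2 without 1E5 replicates 1 or 2 or 3A4 replicates 1 or 3, ITGB5 without any library but 3A4 replicate 2, and ITGA6 without any of the 6. LAMA5, LAMB2 and HSPG2 had overlapping groups.

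In PANC-1 the compounds parted at the integrins and at SPARC. ITGB1 was at 1959, 2387 and 1891 CPM with 1E5 and 961, 981 and 936 CPM with 3A4 (log2 difference -1.12, 95% interval -1.36 to -0.87, adjusted p = 2.66e-05, edgeR), on either side of the DMSO libraries. ITGB3 was at 14.6, 23.7 and 16.6 CPM with 3A4 (log2 -1.37, interval -1.88 to -0.87, adjusted p = 0.000808) and ITGB5 at 202, 307 and 229 CPM (log2 1.3, interval 0.90 to 1.70, adjusted p = 0.000253). SPARC was at 52.8, 127 and 78.1 CPM with 3A4 (log2 2.91, interval 1.36 to 4.45, adjusted p = 0.00731; 4.15 without 1E5 replicate 2), and FN1 at 3.53, 3.33 and 2.49 CPM (log2 1.17, adjusted p = 0.00406). Both genes thus lay nearer to their DMSO values with 3A4 than with 1E5. LAMA4 was higher with 3A4 (log2 1.60, adjusted p = 2.7e-05), and the chains COL6A2, at 23.9, 31.3 and 18.7 CPM (log2 -2.03, adjusted p = 0.000182), and COL5A1, at 6.55, 7.51 and 4.6 CPM (log2 -1.46, adjusted p = 0.000548), were lower. COL7A1 (0.86), ITGA6 (0.38), COL18A1 (-0.82), HSPG2 (-0.96) and LAMB2 (-0.64) differed as well and kept their call with any 1 library left out.

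The remaining 6 PANC-1 calls did not. LOX, at 2.57, 2.86 and 2.17 CPM with 3A4 (log2 -1.61, adjusted p = 0.0202), was lost without 1E5 replicate 1 or 3A4 replicates 1 or 3 (0.0594 to 0.0696). ITGA2 (0.95, adjusted p = 0.0176) was lost without replicate 2 of either compound (0.0511 to 0.0859), and COL6A1 (-0.92, 0.0152) without 3A4 replicates 1 or 3 (0.0508 to 0.0543). AGRN (-0.75) was lost without 1E5 replicate 2 or 3A4 replicates 1 or 3, LAMC1 (-0.43) without 1E5 replicate 2 or any 3A4 library, and ITGA5 (0.48) without any library but 1E5 replicate 2. Leaving out 1E5 replicate 2 raised the PANC-1 count from 19 to 24 members, and COL1A1 (1.94), COL3A1 (2.55), COL5A2 (1.08), COL13A1 (2.94), LAMB1 (0.65), TGFBI (0.81), LOXL2 (0.36) and ITGAV (0.89) were then called as higher with 3A4. LOXL2 had the opposite sign (-0.46) with all libraries. The share of all genes called without that library is not given here.

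**Figure D4:**
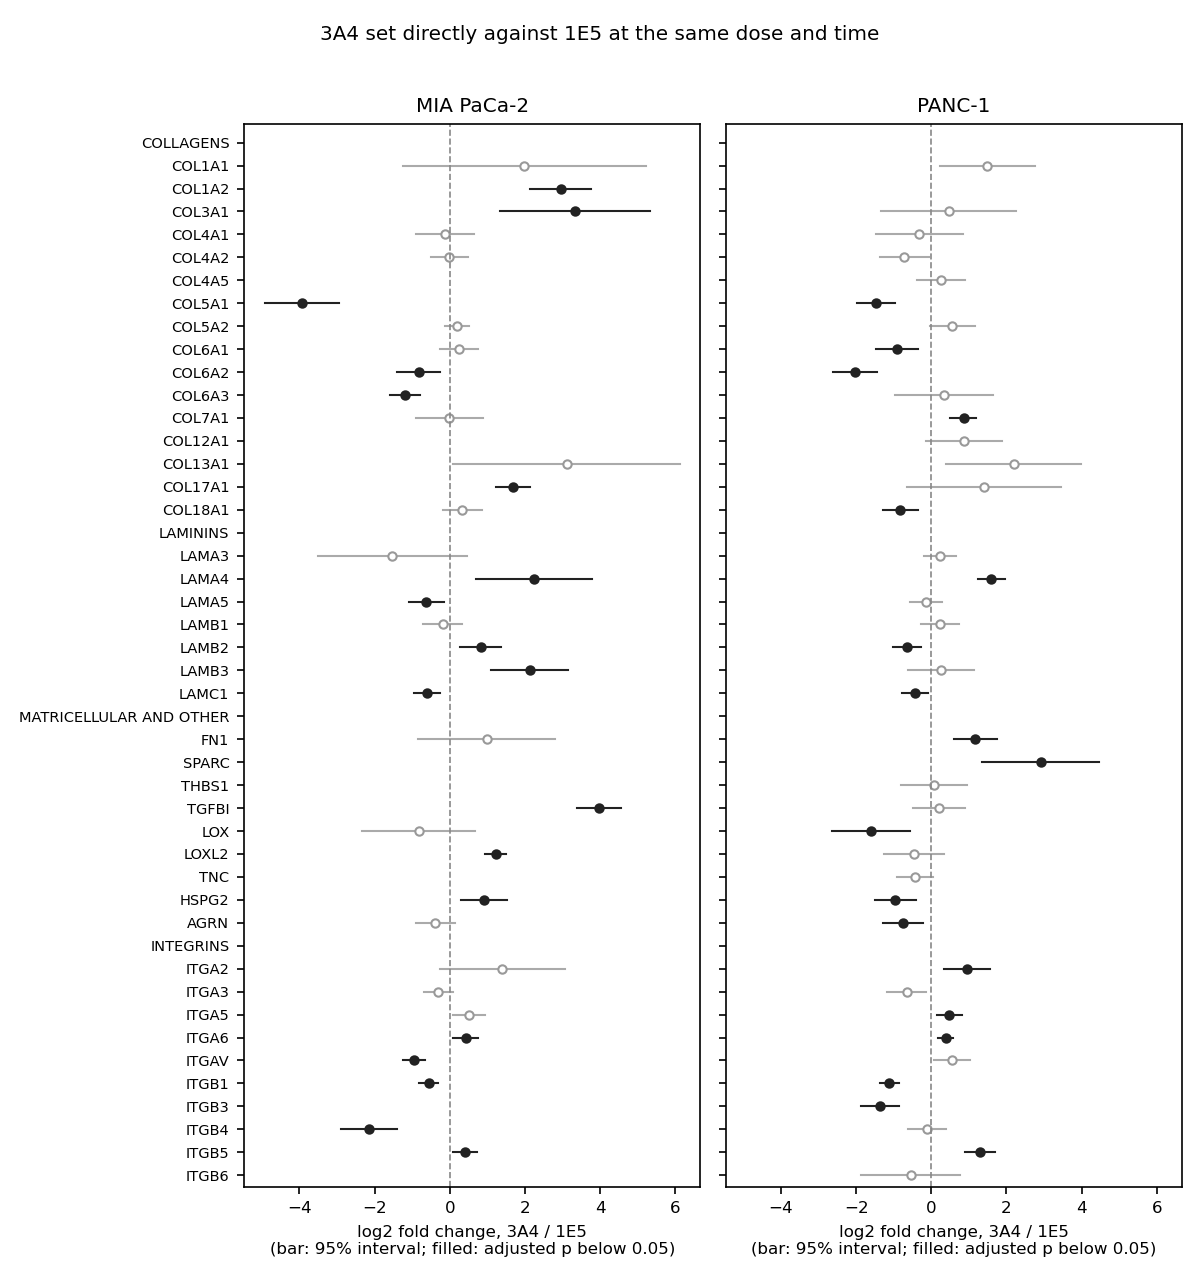
Log2 difference of 3A4 against 1E5 for the tested members in MIA PaCa-2 and PANC-1 (x axis, log2 units), with 95% intervals; filled points had an adjusted p under 0.05 by edgeR. TGFBI, at 3.98, and COL5A1, at -3.93, lie at the ends in MIA PaCa-2, and ITGB1 lies at -1.12 in PANC-1 with one of the narrowest intervals.

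As a share of the library, the summed integrins rose and the summed matricellular and other matrix proteins fell with 1E5 in MIA PaCa-2. Such sums weigh the highest genes most. With DMSO these were ITGB1 at 754 and LOXL2 at 307 CPM (scaled over all libraries), with log2 fold changes of 0.86 and -1.52. By member, 2 integrins were called higher and 1 lower of 8 tested. Of 6 matricellular and other matrix proteins tested, 1 was higher and 3 lower. In MIA PaCa-2 the 42 members took 0.371% ± 0.0199 of counts with DMSO and 0.442% ± 0.0346 with 1E5, of which integrins took 0.132% ± 0.0133 and 0.224% ± 0.0114 and the matricellular and other matrix proteins 0.0563% ± 0.0034 and 0.0308% ± 0.0049. Collagens took 0.141% ± 0.0102 and 0.143% ± 0.0211, within their SD of each other. In PANC-1 integrins took 0.324% ± 0.0177 with DMSO and 0.401% ± 0.0344 with 1E5, and collagens 0.19% ± 0.0157 and 0.169% ± 0.0433 (SD, n = 3 libraries throughout). In a bulk sample, fewer cells with a gene on and less RNA per cell cannot be told apart.

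**Figure D5:**
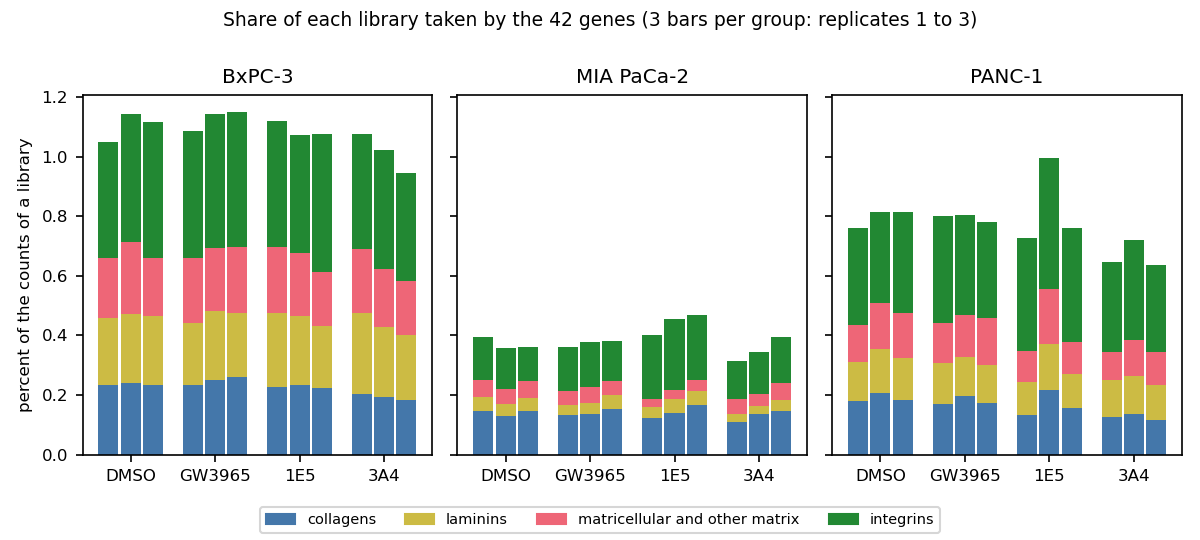
Percent of each library's counts from collagens, laminins, matricellular and other matrix proteins, and integrins, stacked, for the 36 libraries by line and ligand. With DMSO the mean member share was 1.1% ± 0.0473 in BxPC-3, 0.798% ± 0.0318 in PANC-1 and 0.371% ± 0.0199 in MIA PaCa-2.

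The other genes of the pathway were taken from 8 lists with 217 genes, whose counts are read against the share of all genes called in the same contrast. GW3965 called 2 of 30 tested matrix proteases and inhibitors in BxPC-3 as lower (MMP13, log2 fold change -2.13, and PLAT, -1.50), 1 of 23 in MIA PaCa-2 as higher, which is not reported here, and no gene of the lists in PANC-1. With 1E5 in MIA PaCa-2, where 23.6% of all genes were higher and 23.4% lower, the enzymes and chaperones that modify collagen were 13 lower and 4 higher of 23 tested, with a median log2 fold change of -0.87 (0.05 over all genes). PLOD1, a lysyl hydroxylase, fell from 276, 253 and 254 to 68.7, 77.3 and 83.2 CPM (log2 -1.77, adjusted p = 1.23e-06, edgeR), COLGALT1, which glycosylates hydroxylysine, by -1.13 and P3H3 by -1.62. Of 23 matrix proteases and inhibitors 4 were higher and 10 lower: PLAU, the urokinase that activates plasminogen, fell from 231, 218 and 215 to 39.9, 37 and 59.5 CPM (log2 -2.28, adjusted p = 2.52e-06), CTSB changed by -1.81 and CTSL by 1.29. Of 32 adhesion adaptors and kinases, which link integrins to actin, 5 were higher and 11 lower, among them VCL (vinculin, -2.10), TNS3 (-1.62) and ACTN4 (-1.47). Of 23 other glycoproteins and proteoglycans 9 were higher and 4 lower (LTBP1 2.56, LTBP3 -1.95, FBLN1 -2.48), and of 17 other receptors and hemidesmosome genes 3 and 8 (CD151 -1.90, BCAM -1.97, CD44 -1.08).

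With 1E5 in PANC-1, where 19.7% of all genes were higher and 19.3% lower, 6 of 12 other collagens tested were lower and 1 higher. COL11A1, a fibrillar chain, fell from 334, 434 and 361 to 48.7, 142 and 50.8 CPM (log2 -2.22, adjusted p = 0.000729, edgeR), COL21A1 by -3.15 and COL2A1 by -6.32. Collagen modification genes split 5 higher to 8 lower of 28 (P4HA2 1.45, P3H2 -0.96, TGM2 -2.56), proteases and inhibitors 7 to 6 of 28 (CTSL 1.52, ADAM17 1.44, MMP1 4.11) and glycoproteins and proteoglycans 4 to 4 of 30 (MXRA5 -3.36, THBS3 1.49, CCN5 1.45). Adhesion adaptors were 5 higher and 9 lower of 33: TNS3, a tensin at integrin tails, fell from 946, 919 and 921 to 189, 254 and 184 CPM (log2 -2.15, adjusted p = 1.27e-06), CAV1 by -1.92 and TNS2 by -1.83. Other receptors were 3 and 10 of 22 (HMMR -2.32, CD44 -0.93, CD47 -0.69), and other laminin and basement membrane genes 2 and 3 of 8 (PXDN -3.65, NTN4 0.86).

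With 3A4 in MIA PaCa-2, where 7.3% of all genes were higher and 6.45% lower, collagen modification genes were 1 higher and 8 lower of 23 (PLOD1 -0.71, CRTAP -0.73, BMP1 -0.96). The matricellular growth regulators CCN1 and CCN2 rose, CCN1 from 101, 68.3 and 38 to 324, 318 and 303 CPM (log2 2.18, adjusted p = 0.00137, edgeR) and CCN2 by 2.33, in a list with 5 higher and 3 lower of 23 in which THBS3 fell by 1.89 on the log2 scale. Among proteases and inhibitors, 2 higher and 3 lower of 23, CTSL rose (1.25) and CTSB fell (-0.89). Adaptors were 3 and 3 of 32 (LPXN 2.06, ZYX 0.95, FERMT1 1.81) and other receptors 2 and 5 of 17 (DDR1 -1.45, GPC1 -1.0, CD151 -0.64). In PANC-1, at 3.53% higher and 3.84% lower over all genes, the list with 5 or more calls under 3A4 was that of proteases and inhibitors, 6 higher and none lower of 28: MMP1, interstitial collagenase, was at 0.197, 0.203 and 0.272 CPM with DMSO and 5.06, 2.23 and 3.26 CPM with 3A4 (log2 3.93, adjusted p = 0.0019), TIMP1 rose by 0.65 and SERPINE2 by 1.46.

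Between the 2 inverse agonists, 17.2% of all genes were higher and 15.1% lower with 3A4 in MIA PaCa-2, and 18.5% and 18.8% in PANC-1. Adhesion adaptors were 13 higher and 1 lower of 32 with 3A4 in MIA PaCa-2 (ACTN4 1.88, FLNA 1.40, ITGB1BP1 1.15) and 12 higher and 4 lower of 33 in PANC-1 (CAV1 2.11, TNS3 1.5, TNS2 1.38). Proteases and inhibitors were 8 higher and 1 lower of 23 in MIA PaCa-2 (PLAU 2.23, MMP1 3.06, ADAM17 -1.23) and 7 and 5 of 28 in PANC-1 (CTSL -1.07, ADAM17 -1.22, ADAM9 0.85). Collagen modification genes were 9 and 5 of 23 (PLOD1 1.06, TGM2 1.78, CRTAP -0.95) and 6 and 8 of 28 (P3H2 1.27, TGM2 3.28, P4HA2 -1.25). TGM2, a transglutaminase that cross-links matrix proteins, was at 199, 144 and 231 CPM with 1E5 and 718, 624 and 637 CPM with 3A4 in MIA PaCa-2, and at 15.4, 38.1 and 16.4 and 186, 327 and 167 CPM in PANC-1, groups that did not overlap in either line. Other glycoproteins and proteoglycans were 7 and 2 of 23 (LTBP1 -2.90, CCN2 1.93, THBS3 -1.54) and 5 and 7 of 30 (THBS3 -2.22, BGN -2.60, TINAGL1 2.00), other receptors 6 and 2 of 17 (CD151 1.26, SDC3 -1.28, CD9 0.85) and 7 and 3 of 22 (HMMR 2.89, GPC1 -1.21, CD44 1.06), and basement membrane genes 3 and 2 of 8 in PANC-1 (EGFLAM 1.98, PXDN 3.23, LAMC3 -1.07).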

How the data were processed

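Gene counts, whole numbers for 36 libraries, were deposited by the authors in 1 table. Per the labels' protocols, RNA came from an RNeasy kit and 500 ng of total RNA went into stranded total RNA libraries. Per the submitters' processing notes, the tools named are HISAT2 2.0.2, Trim Galore 0.4.4, StringTie 1.3.1c and SAMtools 1.3, with build GRCh38. Neither annotation nor strand setting is given in the sources used here. Of 58658 lines, 407 transcript lines and 8 others (at most 0.00396% of a library) were left out.

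Positions and lengths came from GENCODE 29 on GRCh38, promoter windows from RefSeq. Tests used edgeR 4.0.16 in R 4.3.3 (TMM scaling, filterByExpr at its defaults, glmQLFit and glmQLFTest, two-sided, 1 mean per group, Benjamini-Hochberg over all genes, threshold 0.05): 12 libraries per line for ligands, 36 for line levels and interactions. The steps were tested on simulated data. CPM is the count over the TMM-scaled library total times 1000000, scaled within a line for ligand values and over all libraries for line levels. Alternatives were limma 3.58.1, DESeq2 1.42.0, other scaling, filters and library sets.

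Members and lists were chosen with earlier results of these data known. Library values are given for up to 5 called members per contrast and group with the largest change and at least 1 CPM in a compared group, and for other called members where they help; up to 3 genes are named per list with 5 or more calls. Protein sequences were not used here, and the values of some list genes are not reported here. The labels do not say that replicates were separate cultures, so p-values rest on a spread among libraries that may be technical; replicate pairs of a group differed beyond counting noise (chi-square per degree of freedom 8.62 to 155 over 36 pairs). Floors of 3 counts cover counting error only.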

Additional observations from a re-analysis of the deposited data

Results flagged for a closer look

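ITGAV was listed because the 1E5 response of its level went in opposite directions in 2 lines, higher in all 3 libraries of MIA PaCa-2 and lower in all 3 of PANC-1, and the test of the difference among lines passed (adjusted p = 6.07e-07, edgeR). In that fit over 36 libraries its log2 fold change with 1E5 was 1.58 in MIA PaCa-2, -0.99 in PANC-1 and -0.09 in BxPC-3. The cause was not tested.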

How the results depend on the processing

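Of 98 member calls in the ligand contrasts, 58 were kept under every alternative run that tested the member, 40 were lost under at least 1, and 0 changed direction. With counts thinned to the smallest library, some low members of MIA PaCa-2 had no result. Among the kept calls these were COL3A1 and LOX with 1E5, and LAMB3 for 3A4 against 1E5. For them, holding at that depth was not tested. The share kept was 13 of 16 for 1E5 in MIA PaCa-2, 15 of 20 in PANC-1, 4 of 14 and 4 of 10 for 3A4, and 10 of 19 and 12 of 19 for 3A4 against 1E5. For 3A4 against DMSO in MIA PaCa-2, 9 members were called with only the compared groups in the fit and 5 without the 2 shallowest libraries; in PANC-1, 21 were called without the 1E5 libraries and 19 when the fit held the compared groups alone. Leaving out the shallowest libraries, or those of 1E5, was chosen after seeing the data. DESeq2 called 1 member for GW3965 in MIA PaCa-2, 3 for 3A4 in BxPC-3 and 3 for 3A4 against 1E5 in BxPC-3, where edgeR called 0. The cause was not tested. COL5A2 under 1E5 in PANC-1 was lost with only the compared groups (adjusted p = 0.0554).

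With 1 library left out, the number of called members ranged from 0 to 1 for GW3965 in BxPC-3 (ITGAV without DMSO replicate 3), 13 to 18 for 1E5 in MIA PaCa-2, 17 to 30 in PANC-1, 4 to 12 and 4 to 8 for 3A4 in MIA PaCa-2 and PANC-1, and 12 to 16 and 14 to 24 for 3A4 against 1E5. It was 36 to 37, 32 to 33 and 34 to 36 for the line contrasts, and 19 to 23 and 8 to 13 for the interactions of 1E5 and 3A4. Counts under alternative and left-out runs are given without the share of all genes called in the same run.

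The replicate numbers were not treated as pairs: same-numbered libraries had a correlation of deviations over 0.1 in 4, 5 and 8 of 18 pairs in PANC-1, MIA PaCa-2 and BxPC-3. With the number as a replicate block, the count was 1 for GW3965 in BxPC-3 (COL7A1), 2 for 3A4 and 2 for 3A4 against 1E5 in BxPC-3 (COL4A5 and COL7A1 each), 17 and 21 for 1E5, 13 and 12 for 3A4 and 19 and 21 for 3A4 against 1E5 in MIA PaCa-2 and PANC-1, 36, 33 and 36 for the lines, and 0, 26 and 15 for the interactions. Depth limits low members most in the MIA PaCa-2 controls.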
